A study of Homo sapiens with 8 samples.

Results

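The 44 genes described here encode the carriers, enzymes and regulators with which a liver cell takes up glucose, breaks it down to pyruvate and lactate, rebuilds it from small precursors and stores it as glycogen. They are a list of names taken from the pathways, drawn up with earlier results of these data known, and all 44 were among the 58735 genes of the deposited table. RNA was measured by bulk poly(A) sequencing in HepG2, a human cell line established from a hepatocellular carcinoma, in 4 libraries of cells made to overexpress DNMT3A with a lentivirus and in 4 control libraries. The labels give the genotype as DNMT3A overexpression in the first group and as WT in the control group. The library names begin with pLV_EGFP_DN for DNMT3A and with pLV_EGFP_NC for control, letters that the labels do not spell out. All 8 libraries come from the same line grown in the same medium with serum, and the labels name no promoter, clone or time after infection. Whether the control cells were infected is not said either, and an effect of infection itself was not tested. In this text "with DNMT3A" names the group of libraries. Whether libraries of the same group were made from separate cultures is not said. A p-value here is therefore set against the spread of these libraries alone, and that spread may be technical.

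Glycolysis splits glucose into pyruvate in the cytosol, in which a few steps run one way in cells: those of hexokinase, phosphofructokinase and pyruvate kinase. Gluconeogenesis goes round these steps with its own enzymes (pyruvate carboxylase, the PEP carboxykinases, fructose bisphosphatase and glucose 6-phosphatase), and the liver is the main organ that runs it to supply blood glucose. Most steps have several isozymes, and adult hepatocytes and growing or tumour cells are known for different ones: GLUT2 and PKLR in hepatocytes, and GLUT1, HK2 and PKM in many tumours. DNMT3A is a de novo DNA methyltransferase that adds methyl groups to cytosines, mostly in CG dinucleotides. Methylation itself was not measured here.

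DNMT3A (ENSG00000119772) was at 9.75, 10.2, 8.51 and 7.26 FPKM in DNMT3A libraries 1 to 4, against 3.62, 3.89, 3.45 and 3.64 FPKM in control libraries 1 to 4. The groups did not overlap, with means of 8.93 ± 1.33 FPKM in DNMT3A libraries and 3.65 ± 0.178 FPKM in control libraries (SD, n = 4 each), a ratio of 2.45. Reads from the virus and from the cell's own gene cannot be told apart in this table. FPKM is the number of fragments scaled to the length of the gene and to the size of the library, so levels can be set side by side between genes. All 10 hepatocyte lineage markers examined, among them ALB, AFP and APOA1, were above 1 FPKM in every library. The 6 fibroblast and 4 endothelial markers were under 1 FPKM in every library. PTPRC, a marker of leukocytes, and CD3E, a marker of T cells, were listed at 0 in all 8. Of the 5 immune markers LYZ, lysozyme, was high, at 313 to 344 FPKM in DNMT3A libraries and 196 to 263 FPKM in control libraries.

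A sequence window before a RefSeq start is shown here for 5 of the genes whose RNA differed. CG dinucleotides are where DNMT3A acts, and these windows differ widely in how many they hold. Each window is the 250 bases before the gene's first listed start in RefSeq (GRCh38.p14), written 5′ to 3′ on the gene's strand, with each CG in capitals. By the gene coordinates of the deposited table, the PFKFB4 and PFKP windows lie inside the gene and the HK2 window runs past the gene's start. The PFKFB3 and PKLR windows lie before it. PFKP has 4 listed windows, and HK2, PFKFB3 and PKLR have 2 each. Which start these cells use was not tested. HK2 (chr2:74833877-74834126, plus strand) and PFKFB3 (chr10:6144671-6144920, plus strand) held 34 CG dinucleotides each, PFKFB4 (chr3:48556804-48557053, minus strand) held 18, PFKP (chr10:3067720-3067969, plus strand) held 28, and PKLR (chr1:155301439-155301688, minus strand) held 2. RNA of HK2, PFKFB3 and PFKFB4 was higher with DNMT3A and RNA of PFKP and PKLR was lower, so dense windows stood on both sides.
HK2: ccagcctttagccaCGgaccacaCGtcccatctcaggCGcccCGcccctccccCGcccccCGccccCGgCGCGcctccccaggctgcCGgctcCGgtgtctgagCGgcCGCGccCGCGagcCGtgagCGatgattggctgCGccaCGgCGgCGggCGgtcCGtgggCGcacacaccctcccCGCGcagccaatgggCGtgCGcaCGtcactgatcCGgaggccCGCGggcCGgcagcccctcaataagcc
PFKFB3: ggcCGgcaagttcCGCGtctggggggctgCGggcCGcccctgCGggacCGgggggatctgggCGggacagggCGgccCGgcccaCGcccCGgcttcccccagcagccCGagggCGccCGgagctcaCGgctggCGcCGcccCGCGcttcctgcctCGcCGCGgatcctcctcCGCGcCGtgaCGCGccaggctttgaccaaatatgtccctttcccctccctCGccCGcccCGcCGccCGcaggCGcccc
PFKFB4: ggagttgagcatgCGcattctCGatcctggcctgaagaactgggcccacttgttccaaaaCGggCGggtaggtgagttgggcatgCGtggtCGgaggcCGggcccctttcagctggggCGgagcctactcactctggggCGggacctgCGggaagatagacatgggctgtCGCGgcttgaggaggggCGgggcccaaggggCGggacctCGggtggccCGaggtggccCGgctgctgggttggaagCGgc
PFKP: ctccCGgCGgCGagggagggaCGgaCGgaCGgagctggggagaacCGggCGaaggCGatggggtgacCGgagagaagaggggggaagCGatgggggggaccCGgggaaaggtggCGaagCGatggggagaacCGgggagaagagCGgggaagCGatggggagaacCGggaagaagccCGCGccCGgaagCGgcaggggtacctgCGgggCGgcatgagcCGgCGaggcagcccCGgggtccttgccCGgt
PKLR: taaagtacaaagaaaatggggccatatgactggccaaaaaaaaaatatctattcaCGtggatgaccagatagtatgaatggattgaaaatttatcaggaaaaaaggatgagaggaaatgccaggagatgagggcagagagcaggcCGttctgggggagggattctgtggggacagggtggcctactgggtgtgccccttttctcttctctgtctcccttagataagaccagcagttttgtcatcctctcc

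A RefSeq window was matched for 39 of the 44 genes, and not for SLC2A3, SLC16A1, PCK1, GYS2 and PPP1R3B. The 39 windows held a median of 22 CG dinucleotides, against a median of 11 in all 35116 windows of the same length. The 5 matched genes that were higher with DNMT3A had a median of 18 (9 to 34), the 4 that were lower had 18.5 (2 to 28), and the 25 that did not pass the test had 22 (3 to 33). The ranges overlapped, and CG content did not sort the genes by direction. The motif ACGTG, a core within the sites of HIF and of some E-box factors, was looked for on both strands and was found in 16 of the 39 windows (41.0%), against 18.5% of all windows. It stood in 2 of 5 windows of genes that were higher, 2 of 4 that were lower and 12 of 25 that did not pass the test. These counts take the first listed window of each gene. In another listed window the motif also stood for PFKFB3, PFKP and PGM1, for TPI1, PDK1 and SLC16A3, which did not pass, and for PFKM, not tested. The motif itself holds a CG and the 39 windows were richer in CG than all windows, so the shares of 41.0% and 18.5% are not like for like. A match to these letters is a description of the sequence and not a binding site.

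Of the 44 genes, 37 had a mean of at least 1 FPKM over the 8 libraries and were tested, in a limma fit of log2(FPKM + 1) across 11620 genes (threshold 0.05, Benjamini-Hochberg). HK2, PFKFB3, PFKFB4, ALDOA, PCK1 and PCK2 rose with DNMT3A, and PFKP, PKLR, GBE1 and PGM1 fell. The 6 that rose were 16.2% of the 37, against 9.93% of all genes tested, and the 4 that fell were 10.8%, against 10.6% of all genes tested. In either direction 27.0% of the 37 passed, against 20.6% of all genes tested, a difference to which no test was applied. The median change of the 37 was 0.00 on the log2(FPKM + 1) scale and that of all genes tested was -0.01. By the plain criterion that the groups do not overlap, 5 were higher (12.1% of all genes tested were) and 6 were lower (13% of all genes tested were). PCK1 passed the filter on level only through its DNMT3A libraries, since all 4 control libraries were under 1 FPKM. In bulk RNA a change in fewer cells and a smaller change in every cell cannot be told apart. SLC2A2, HK1, PFKM, LDHB, FBP1, GYS2 and PPP1R3B were under the filter and are described by their levels.

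**Figure D1:**
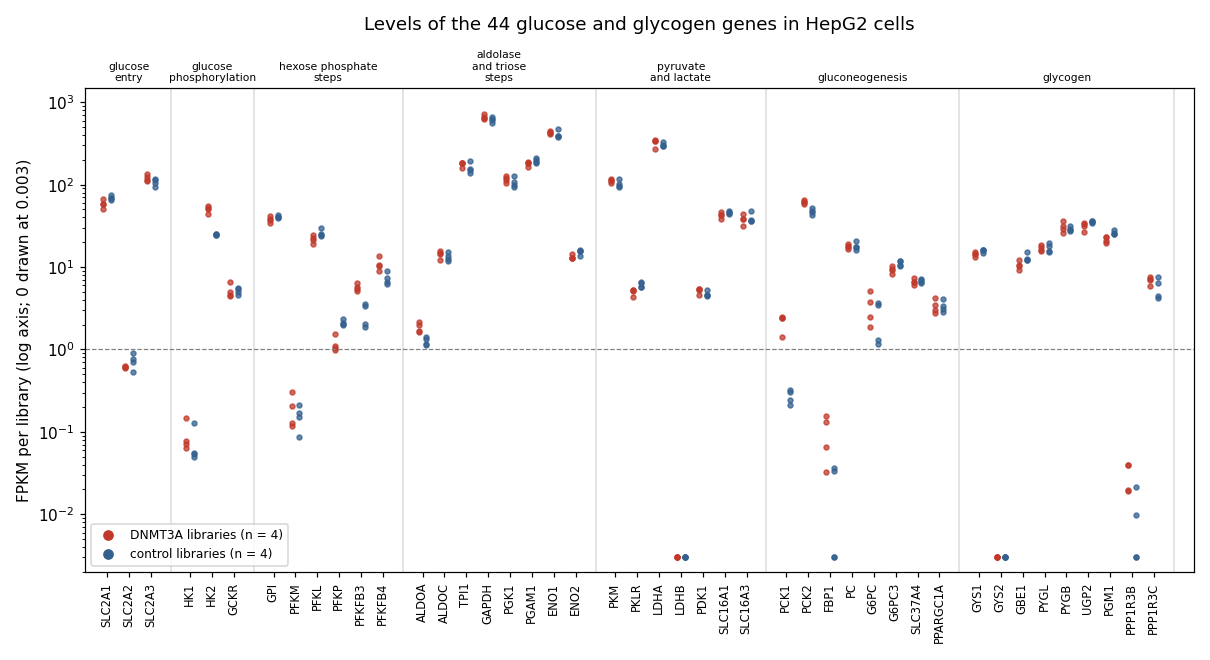
Levels of the 44 genes in FPKM on a log axis, with 1 point per library, DNMT3A libraries (red) left of control libraries (blue) for each gene, genes grouped by role; the dashed line marks the filter of 1 FPKM and values of 0 are drawn at the bottom edge. GAPDH, ENO1 and LDHA stand highest, LDHB and GYS2 are at 0 throughout, and HK2 and PCK1 show the clearest gap between the groups.

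Glucose enters through the facilitative carriers, of which SLC2A3 (GLUT3, a high-affinity carrier best known from neurons) and SLC2A1 (GLUT1, the carrier of most growing cells) were abundant. SLC2A3 was at 134, 114, 125 and 111 FPKM in DNMT3A libraries, against 104, 117, 113 and 94.7 FPKM in control libraries, a log2 difference of 0.17 (95% interval -0.01 to 0.36) that did not pass the test (adjusted p = 0.169). SLC2A1 was at 59.1, 66.2, 58.9 and 50.0 FPKM in DNMT3A libraries, against 74.6, 64.9, 69.5 and 69.8 FPKM in control libraries, a log2 difference of -0.25 (-0.44 to -0.07; adjusted p = 0.0588). The groups overlapped for both carriers. Without DNMT3A library 2, which held the highest SLC2A1 of its group, SLC2A1 passed at an adjusted p of 0.0217. SLC2A1 passed in 3 of 15 alternative fits, and in the others its adjusted p went up to 0.146. SLC2A2 (GLUT2), the low-affinity carrier of adult hepatocytes, was at 0.591 to 0.623 FPKM in DNMT3A libraries and 0.533 to 0.906 FPKM in control libraries. SLC2A3 thus made up 63.0% to 69.2% of the summed FPKM of the 3 carriers in DNMT3A libraries and 57.3% to 64.1% in control libraries, while the sum itself was 180.2 ± 13.2 and 178 ± 8.43 FPKM (SD, n = 4 each).

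Phosphorylation by hexokinase traps glucose in the cell, and HK2, the mitochondria-bound hexokinase of muscle, fat and many tumours, had the smallest adjusted p of the 37 genes. HK2 (ENSG00000159399, chr2:74833981-74893359 in hg38, plus strand) was at 51.5, 43.8, 54.8 and 51.2 FPKM in DNMT3A libraries, against 25.1, 24.5, 24.98 and 24.8 FPKM in control libraries. Every DNMT3A library lay well above every control library, and the control values were nearly equal. The means were 50.3 ± 4.66 FPKM with DNMT3A and 24.9 ± 0.259 FPKM in control (SD, n = 4 each), a ratio of 2.02 and a log2 change of 0.98 (0.83 to 1.14; adjusted p = 4.76e-05). HK1, the hexokinase of most tissues, was nearly absent: 16, 9, 7 and 8 reads in DNMT3A libraries and 13, 6, 5 and 6 reads in control libraries. HK2 therefore held 99.7% to 99.9% of the FPKM of these 2 genes in DNMT3A libraries and 99.5% to 99.8% in control libraries, and their sum followed HK2. GCKR, a liver protein that regulates sugar phosphorylation, was at 4.44 to 6.53 FPKM in DNMT3A libraries and 4.55 to 5.54 FPKM in control libraries (log2 difference -0.00, adjusted p = 0.994).

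At the hexose phosphate steps PFKFB3 and PFKFB4 rose, which are among the kinases that make fructose 2,6-bisphosphate, the strongest activator of phosphofructokinase, while 1 phosphofructokinase subunit fell. Their relatives PFKFB1 (log2 difference 0.02, adjusted p = 0.898) and PFKFB2 (log2 difference -0.00, adjusted p = 0.979) did not pass the test. PFKFB3 (ENSG00000170525, chr10:6144934-6254644, plus strand), the isozyme with high kinase activity, was at 5.77, 6.40, 5.47 and 5.14 FPKM in DNMT3A libraries, against 1.88, 3.33, 3.58 and 2.02 FPKM in control libraries. All DNMT3A values lay above all control values, among which libraries 1 and 4 were low and libraries 2 and 3 were higher. The means were 5.70 ± 0.537 FPKM with DNMT3A and 2.70 ± 0.875 FPKM in control (SD, n = 4 each), a ratio of 2.11 and a log2 change of 0.88 (0.55 to 1.22; adjusted p = 0.00419). PFKFB4 (ENSG00000114268, chr3:48517684-48562015, minus strand), its relative first described from testis, was at 10.3, 8.91, 13.5 and 10.6 FPKM in DNMT3A libraries, against 9.02, 6.66, 6.22 and 7.38 FPKM in control libraries. DNMT3A library 2 was just below control library 1, so the groups overlapped. The ratio of the means was 1.48 and the log2 change 0.51 (0.22 to 0.79; adjusted p = 0.0224), a call that was lost without DNMT3A library 3, control library 2 or control library 3 (adjusted p = 0.0502 to 0.0644). Added together, PFKFB3 and PFKFB4 came to 16.5 ± 1.66 FPKM with DNMT3A and 10.0 ± 0.636 FPKM in control (SD, n = 4 each), with no overlap.

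Phosphofructokinase commits sugar to glycolysis and is built from liver (PFKL), platelet (PFKP) and muscle (PFKM) subunits. PFKP (ENSG00000067057, chr10:3066333-3137712, plus strand) was at 1.05, 1.55, 1.09 and 0.9995 FPKM in DNMT3A libraries, against 2.34, 2.07, 2.08 and 1.997 FPKM in control libraries. No DNMT3A library reached the lowest control library. The means were 1.17 ± 0.252 FPKM with DNMT3A and 2.12 ± 0.149 FPKM in control (SD, n = 4 each), a ratio of 0.554 and a log2 change of -0.53 (-0.74 to -0.32; adjusted p = 0.00483). PFKL, by far the most abundant subunit, was at 22.7, 24.2, 21.4 and 19.0 FPKM in DNMT3A libraries, against 29.9, 24.0, 24.6 and 25.4 FPKM in control libraries. Its log2 difference of -0.24 (-0.44 to -0.04) did not pass the test (adjusted p = 0.0882), and DNMT3A library 2 overlapped control library 2. PFKM was at 0.117 to 0.307 FPKM in DNMT3A libraries and 0.0863 to 0.210 FPKM in control libraries. The summed FPKM of the 3 subunits was 23.2 ± 2.43 with DNMT3A and 28.2 ± 2.86 in control (SD, n = 4 each), and the groups did not overlap. GPI, which turns glucose 6-phosphate into fructose 6-phosphate, was at 34.2 to 41.2 FPKM in DNMT3A libraries and 39.6 to 42.7 FPKM in control libraries (log2 difference -0.11, adjusted p = 0.26).

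**Figure D2:**
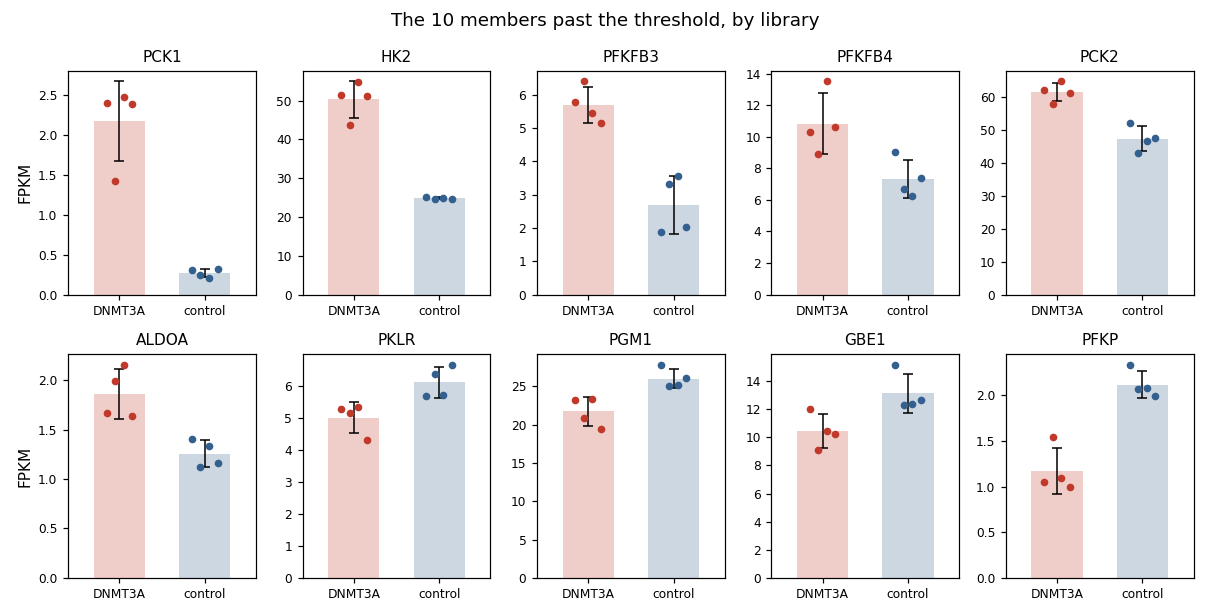
FPKM of the 10 genes past the threshold, with 1 point per library, bars at the mean and error bars of 1 SD (n = 4), DNMT3A left of control in each panel and each vertical axis starting at 0. PCK1 and HK2 show groups far apart, whereas PFKFB4 overlaps and PKLR and GBE1 are separated by a narrow gap.

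The aldolase and triose steps, which carry the most abundant RNAs of the pathway, had 1 of 8 genes past the test (12.5%, against 20.6% of all genes tested, a gap of little meaning for 8 genes). GAPDH, the dehydrogenase that makes NADH and is often used as a reference gene, was at 659, 634, 719 and 642 FPKM in DNMT3A libraries, against 669, 554, 615 and 620.1 FPKM in control libraries. It had the highest level of the 44 genes, and its log2 difference was 0.11 (-0.05 to 0.28; adjusted p = 0.305). ENO1, the ubiquitous enolase, was at 445, 425, 436 and 407 FPKM in DNMT3A libraries, against 469.7, 387, 378 and 389 FPKM in control libraries (log2 difference 0.08, adjusted p = 0.487). Control library 1 was the highest of all 8 for ENO1, while the other 3 control libraries were the lowest 3. ENO2, the enolase named for neurons, was at 12.9, 14.5, 12.9 and 12.8 FPKM in DNMT3A libraries, against 16.1, 15.7, 15.9 and 13.6 FPKM in control libraries. Its log2 difference was -0.19 (-0.35 to -0.04, adjusted p = 0.074). It passed the test without DNMT3A library 2 (adjusted p = 0.0348) and without control library 4 (adjusted p = 0.0311), the libraries that lay nearest the other group. ENO2 passed in 3 of 15 alternative fits, and in the others its adjusted p went up to 0.175.

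The other genes between the aldolase step and enolase spread across both groups. TPI1, triose phosphate isomerase, was at 185, 184, 182 and 159.9 FPKM in DNMT3A libraries, against 192, 155, 137 and 149 FPKM in control libraries (log2 difference 0.17, adjusted p = 0.249). It passed the test without control library 1, which held the highest value (adjusted p = 0.0446). TPI1 passed in 2 of 15 alternative fits, and in the others its adjusted p went up to 0.516. PGK1, the first enzyme of the pathway that makes ATP, was at 106 to 128 FPKM in DNMT3A libraries and 93.9 to 127 FPKM in control libraries (adjusted p = 0.328). PGAM1, phosphoglycerate mutase, was at 164 to 188 FPKM in DNMT3A libraries and 184 to 211 FPKM in control libraries (adjusted p = 0.227). ALDOC, the aldolase best known from brain, stood above ALDOA in this table, at 12.1 to 15.8 FPKM in DNMT3A libraries and 11.7 to 15.2 FPKM in control libraries (adjusted p = 0.496).

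ALDOA (ENSG00000149925, chr16:30064164-30070457, plus strand), the aldolase of muscle and of most dividing cells, was at 1.67, 1.99, 2.16 and 1.64 FPKM in DNMT3A libraries, against 1.41, 1.13, 1.34 and 1.16 FPKM in control libraries. The groups did not overlap, with a log2 change of 0.34 (0.14 to 0.54; adjusted p = 0.0246). The level itself is uncertain, since 53.5% of its exonic bases also belong to other genes of GENCODE 29 (42.3% of its exonic bases to the gene AC093512.2 on the same strand), and the sources used here do not give how shared reads were counted. The call was lost without DNMT3A library 2 or 3 or control library 2, 3 or 4 (adjusted p = 0.05002 to 0.0736). Pseudogene copies are a further source of shared reads: 62 copies of GAPDH summed to 11.96 FPKM with DNMT3A and 15.9 FPKM in control, small beside GAPDH itself.

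At the end of glycolysis, PKM, which encodes the muscle and tumour forms of pyruvate kinase (M1 and M2, not separable at gene level), stood far above PKLR, the liver and red cell gene. PKM was at 114, 116, 110.5 and 104 FPKM in DNMT3A libraries, against 118, 97.1, 92.5 and 103 FPKM in control libraries (log2 difference 0.12, adjusted p = 0.307). PKLR (ENSG00000143627, chr1:155289293-155301438, minus strand) was at 5.26, 5.14, 5.32 and 4.29 FPKM in DNMT3A libraries, against 5.69, 6.36, 5.70 and 6.65 FPKM in control libraries. All DNMT3A values were below all control values, by a narrow margin, with a log2 change of -0.24 (-0.41 to -0.07; adjusted p = 0.0492). This call was the least stable of the 10: it was lost when any 1 of the 8 libraries was left out (adjusted p = 0.062 to 0.12), and 17.6% of its exonic bases overlap HCN3 on the opposite strand, whose reads could not be separated if the count ignored strand.

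LDHA, the lactate dehydrogenase subunit that favours lactate, was at 334, 274, 342 and 352 FPKM in DNMT3A libraries, against 331, 292, 294 and 301 FPKM in control libraries (log2 difference 0.09, adjusted p = 0.481). Its partner LDHB, the subunit of heart muscle, was listed at 0 in all 8 libraries, where 3 reads would have been 0.0549 to 0.0635 FPKM. Of its exonic bases 33.4% are shared with AC010197.2, a gene on the same strand, and the part of this overlap in the 0 was not tested. PDK1, the kinase that shuts pyruvate dehydrogenase, was at 4.62 to 5.48 FPKM in DNMT3A libraries and 4.48 to 5.20 FPKM in control libraries (adjusted p = 0.243). The lactate carriers did not pass the test either. SLC16A1 (MCT1) was at 37.97 to 47.1 FPKM in DNMT3A libraries and 44.5 to 47.5 FPKM in control libraries (adjusted p = 0.264). SLC16A3 (MCT4), the export carrier of glycolytic cells, was at 31.1 to 44.3 FPKM in DNMT3A libraries and 35.8 to 48.4 FPKM in control libraries (adjusted p = 0.799).

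Both PEP carboxykinases, which draw carbon from the TCA cycle toward glucose, rose with DNMT3A and stood at very different levels. PCK1 (ENSG00000124253, chr20:57561080-57568112, plus strand), the cytosolic enzyme and a classic target of fasting hormones, was at 2.40, 1.43, 2.47 and 2.39 FPKM in DNMT3A libraries, against 0.304, 0.247, 0.213 and 0.325 FPKM in control libraries. In reads these were 286, 178, 293 and 287 with DNMT3A, against 33, 29, 23 and 39 in control. The groups were far apart, and DNMT3A library 2 was well below the other 3 of its group yet far above every control library. The mean FPKM was 2.17 ± 0.4998 with DNMT3A and 0.272 ± 0.0513 in control (SD, n = 4 each), a ratio of 7.98. On the log2(FPKM + 1) scale, which shrinks the change of a gene this low, the change was 1.30 (1.03 to 1.58; adjusted p = 0.000208), the largest of the 37.

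PCK2 (ENSG00000100889, chr14:24094053-24110598, plus strand), the mitochondrial enzyme and a known target of the amino acid response, was at 62.2, 58.0, 64.8 and 61.2 FPKM in DNMT3A libraries, against 52.2, 43.0, 46.6 and 47.7 FPKM in control libraries. The groups did not overlap, and the ratio of the means was 1.30 with a log2 change of 0.37 (0.22 to 0.52; adjusted p = 0.00503). PCK2 lies in a stretch of chromosome 14, from 20 to 45 Mb, where 88 of 114 tested genes rose, none fell and the median log2 change was 0.49. Its change was below that median, and 38 of the 114 genes were at or below it. Whether the rise of PCK2 belongs to that stretch was not tested. PCK2 held 96.2% to 97.6% of the summed FPKM of the carboxykinases in DNMT3A libraries and 99.3% to 99.5% in control libraries, so PCK1 stayed the minor RNA in both groups.

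The other genes of gluconeogenesis did not pass the test. G6PC, the catalytic subunit of glucose 6-phosphatase that releases free glucose in liver, was at 5.09, 1.86, 3.81 and 2.48 FPKM in DNMT3A libraries, against 3.47, 1.29, 1.15 and 3.62 FPKM in control libraries. Its values spread widely and overlapped, with a log2 difference of 0.38 (-0.31 to 1.07; adjusted p = 0.411), an interval that reaches far to both sides of 0. G6PC3, the form found in all tissues, was at 9.23, 9.55, 10.4 and 8.17 FPKM in DNMT3A libraries, against 11.9, 10.5, 11.7 and 10.4 FPKM in control libraries. Its groups were separated only narrowly (log2 difference -0.23, -0.40 to -0.06, adjusted p = 0.0599). Of 15 alternative fits G6PC3 passed only in 1, that without DNMT3A library 3 (adjusted p = 0.0457). In the others its adjusted p went up to 0.148. SLC37A4, which carries glucose 6-phosphate into the endoplasmic reticulum, was at 6.07 to 7.47 FPKM in DNMT3A libraries and 6.39 to 7.16 FPKM in control libraries (adjusted p = 0.831). PC, pyruvate carboxylase, was at 16.7 to 18.8 FPKM in DNMT3A libraries and 16.1 to 20.8 FPKM in control libraries (adjusted p = 0.908). PPARGC1A, the coactivator PGC-1 alpha that drives the program in fasting liver, was at 2.78 to 4.17 FPKM in DNMT3A libraries and 2.86 to 4.07 FPKM in control libraries (adjusted p = 0.985). FBP1, fructose bisphosphatase, which many liver tumours lack, had 2, 5, 4 and 1 reads in DNMT3A libraries and 1, 1, 0 and 0 reads in control libraries, too few to compare. PCK1 thus rose while PPARGC1A, G6PC and PC did not pass the test.

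Glycogen is built by glycogen synthase and the branching enzyme and taken apart by phosphorylase, with PGM1 and UGP2 linking it to glucose 6-phosphate. Of 7 tested genes 2 fell and none rose, where 10.6% of all genes tested fell and 9.93% rose, so a count this small says little about the group. GBE1 (ENSG00000114480, chr3:81489699-81762161, minus strand), the branching enzyme, was at 12.03, 9.11, 10.5 and 10.3 FPKM in DNMT3A libraries, against 15.2, 12.3, 12.4 and 12.7 FPKM in control libraries. DNMT3A library 1 came within a small distance of the lowest control library, and control library 1 was high; the ratio of the means was 0.798 and the log2 change -0.30 (-0.50 to -0.10; adjusted p = 0.0419). PGM1 (ENSG00000079739, chr1:63593276-63660245, plus strand), phosphoglucomutase, was at 23.3, 20.9, 23.3 and 19.5 FPKM in DNMT3A libraries, against 27.8, 25.1, 25.2 and 26.0 FPKM in control libraries. Its groups did not overlap, and the ratio of the means was 0.836 with a log2 change of -0.25 (-0.41 to -0.10; adjusted p = 0.0317). Both calls were close to the threshold: that of GBE1 was lost when any library but DNMT3A library 1 was left out (adjusted p = 0.0656 to 0.0954), and that of PGM1 when any but DNMT3A libraries 1 and 3 was (adjusted p = 0.0523 to 0.0808).

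UGP2, which makes UDP-glucose, was at 31.2, 26.4, 33.4 and 34.1 FPKM in DNMT3A libraries, against 35.9, 36.6, 35.1 and 34.3 FPKM in control libraries. All DNMT3A values were below all control values, the nearest pair almost equal, and the test was not passed (log2 difference -0.18, -0.36 to -0.01; adjusted p = 0.128). GYS1, the synthase of muscle and most tissues, was at 13.3 to 15.2 FPKM in DNMT3A libraries and 14.96 to 16.3 FPKM in control libraries (log2 difference -0.14, -0.27 to -0.01; adjusted p = 0.109). GYS2, the liver synthase, was listed at 0 in all 8 libraries, and 87.5% of its exonic bases are shared with AC010197.2; the part of this overlap in the 0 was not tested. The phosphorylases were level between the groups. PYGB, the brain form, was at 26.2 to 35.9 FPKM in DNMT3A libraries and 27.8 to 31.6 FPKM in control libraries (adjusted p = 0.617). PYGL, the liver form, was at 15.9 to 18.4 FPKM in DNMT3A libraries and 15.2 to 19.4 FPKM in control libraries (adjusted p = 0.992). PPP1R3C, a subunit that brings protein phosphatase to glycogen, was at 6.99, 5.95, 7.52 and 7.07 FPKM in DNMT3A libraries, against 4.25, 7.55, 6.43 and 4.48 FPKM in control libraries (adjusted p = 0.236). Control libraries 1 and 4 were low for it and libraries 2 and 3 high, the same split as for PFKFB3, whereas G6PC was high in control libraries 1 and 4. These splits were picked out after the values were seen, can arise by chance among so few libraries, and were not tested. The liver subunit PPP1R3B had 4 reads or fewer in every library.

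**Figure D3:**
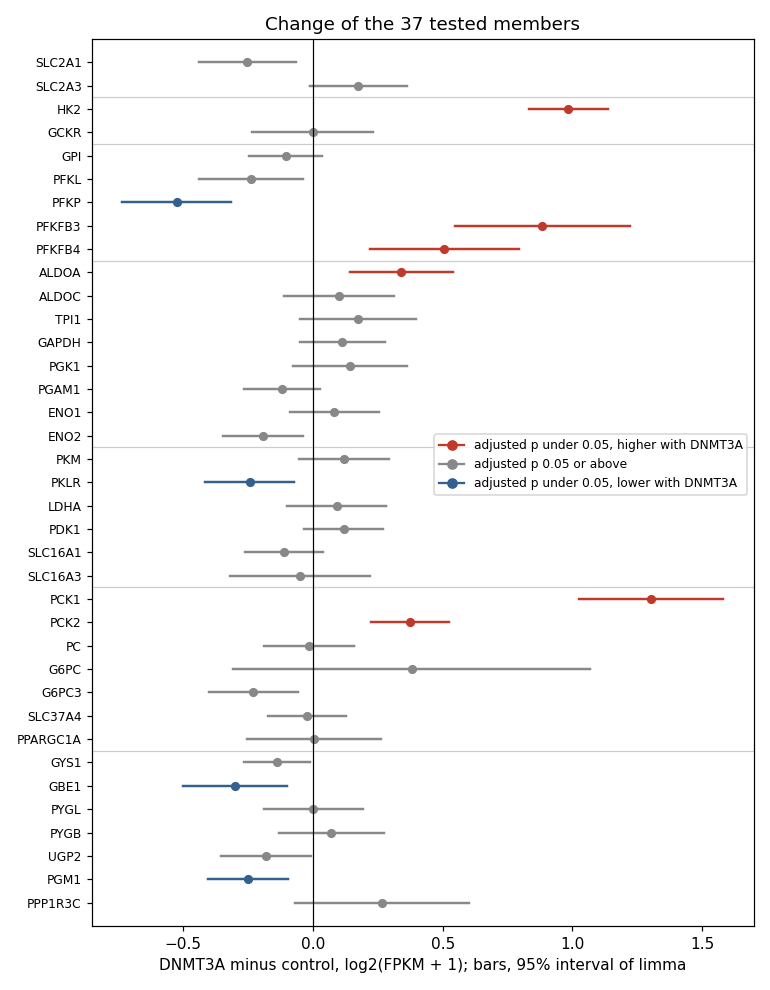
Log2 change of the 37 tested genes, DNMT3A minus control, with the 95% interval from limma, genes ordered by role and coloured by whether the adjusted p was under 0.05. PCK1 at 1.30, HK2 at 0.98 and PFKFB3 at 0.88 stand furthest to the right, PFKP at -0.53 furthest to the left, and most intervals of the triose and lactate steps include 0.

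Ratios of isozymes within a library do not depend on how libraries are scaled, and 15 of 18 listed pairs could be compared. For 3 pairs the ratios of the groups did not overlap. Each had a two-sided exact permutation p of 0.0286, the smallest that 70 assignments of 4 against 4 can give. After Benjamini-Hochberg adjustment over the 15 pairs this was 0.122. With that smallest p, a single separated pair could not pass the adjustment however large its difference. That none passed therefore says nothing about these pairs, which are described by their values. PCK1 to PCK2 was 0.0386, 0.0246, 0.0381 and 0.0391 in DNMT3A libraries, against 0.00582, 0.00575, 0.00458 and 0.00681 in control libraries, a log2 difference of 2.60. PFKP to PFKL was 0.0464, 0.0638, 0.0511 and 0.0526 in DNMT3A libraries, against 0.0781, 0.0863, 0.0846 and 0.0787 in control libraries, a log2 difference of -0.62. The platelet subunit was therefore a smaller part of phosphofructokinase RNA in every DNMT3A library. PKM to PKLR was 21.6, 22.6, 20.8 and 24.2 in DNMT3A libraries, against 20.7, 15.3, 16.2 and 15.4 in control libraries, a log2 difference of 0.41 with control library 1 at the edge of the DNMT3A range.

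For the other 12 pairs the groups overlapped. SLC2A3 to SLC2A1 was 2.27, 1.72, 2.12 and 2.23 in DNMT3A libraries, against 1.39, 1.81, 1.62 and 1.36 in control libraries (log2 difference 0.43, exact permutation p = 0.0571). ENO2 to ENO1 had a log2 difference of -0.29 and ALDOC to ALDOA of -0.46 (exact permutation p = 0.0571 each). PFKFB3 to PFKFB4 was 0.560, 0.719, 0.405 and 0.485 in DNMT3A libraries, against 0.208, 0.499, 0.575 and 0.273 in control libraries (log2 difference 0.57, exact permutation p = 0.257). Both kinases had risen, and the balance between them could not be told apart from the spread of the control libraries. G6PC to G6PC3 differed by 0.82 (p = 0.171), SLC16A3 to SLC16A1 by 0.06 and PYGB to PYGL by 0.07 (p = 0.743 each) on the log2 scale by the same exact test. HK2 to HK1 differed by 0.66 (exact permutation p = 0.2), a ratio that rests on as few as 5 HK1 reads in a library.

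**Figure D4:**
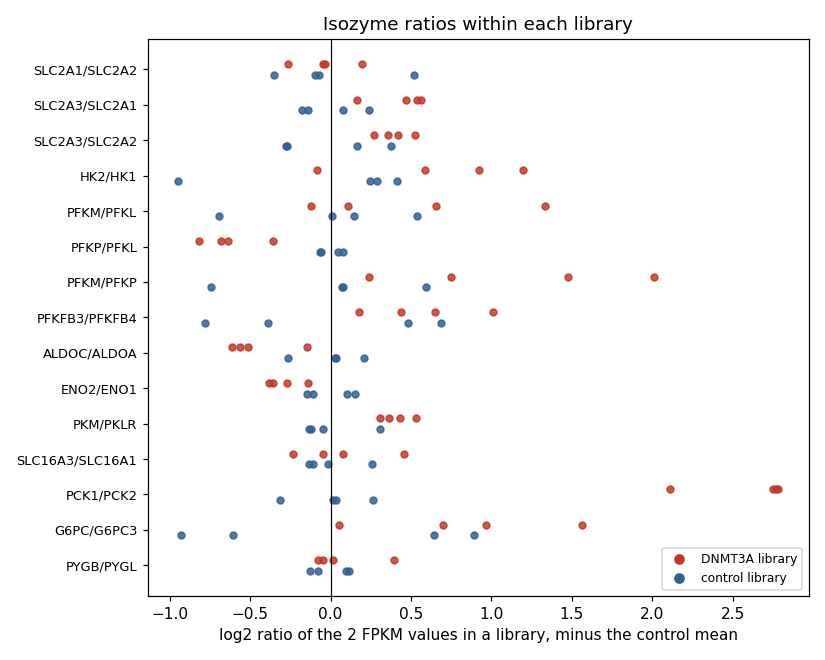
Log2 ratio of the 2 FPKM values of each isozyme pair in each library, set against the control mean of that pair, with DNMT3A libraries (red) drawn above control libraries (blue). Only PCK1/PCK2, PKM/PKLR and PFKP/PFKL show no overlap, with differences of 2.60, 0.41 and -0.62.

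The libraries of a group were not level across these genes. Control library 1 was the highest of the 4 control libraries for 27 of the 37 tested genes, where it was highest for 30.2% of all genes tested. DNMT3A library 4 was the lowest of its group for 20 of the 37 and DNMT3A library 2 for 15, against 34.9% and 33.6% of all genes tested. The median deviation of the 37 genes from the control mean was 0.11, -0.02, 0.05 and -0.06 on the log2(FPKM + 1) scale in DNMT3A libraries 1 to 4, against 0.10, -0.06, -0.04 and -0.02 in control libraries 1 to 4. Library differences of that size are near those of the genes that missed the threshold. Some called genes had changes little larger than those of uncalled genes. PKLR (-0.24), PGM1 (-0.25) and GBE1 (-0.30) were called, while SLC2A1 (-0.25) and PFKL (-0.24) were not. The part of library differences in the results of called and uncalled genes was not tested.

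Neighbouring pathways were read from further gene lists. As the background, 20.6% of all genes tested passed the threshold, 9.93% higher and 10.6% lower with DNMT3A. Among other glycolytic isozymes 2 of 8 tested genes fell and none rose. HKDC1, a hexokinase-like protein often raised in liver tumours, was at 4.74 ± 0.361 FPKM with DNMT3A and 6.31 ± 0.553 FPKM in control (SD, n = 4 each; log2 change -0.35, adjusted p = 0.00911), so it fell where HK2 rose. ENO3, the muscle enolase, was at 2.46 ± 0.345 FPKM with DNMT3A and 3.88 ± 0.268 FPKM in control (SD, n = 4 each; log2 change -0.50, adjusted p = 0.00399). Of 3 muscle genes, ACTA1 fell too (log2 change -0.57, adjusted p = 0.0159), CKM did not pass the test (log2 difference -0.25, adjusted p = 0.0844) and MYH7 was at 0 in all control libraries and 2 DNMT3A libraries. Their summed FPKM was 1.76 to 2.38 in DNMT3A libraries and 3.12 to 4.25 in control libraries, mostly from ACTA1, and its part in the ENO3 result was not tested. In the same list PGAM5 (log2 difference 0.03) and ADPGK (0.01) did not pass. None of 11 tested genes of pyruvate entry and pyruvate dehydrogenase passed, and the largest difference among them was 0.15 on the log2 scale.

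The pentose phosphate pathway, which makes NADPH and ribose from glucose 6-phosphate, had 2 of 8 genes lower and none higher. TALDO1, transaldolase, was at 54.9 ± 1.48 FPKM with DNMT3A and 70.2 ± 6.60 FPKM in control (SD, n = 4 each; log2 change -0.34, adjusted p = 0.00872). PGLS, the lactonase, had a log2 change of -0.32 (adjusted p = 0.0367), a call lost without DNMT3A library 1 or 4 or control library 1, 2 or 3. Of the genes that bring fructose, galactose and mannose into the pathway, 2 of 12 fell: AKR1B1, aldose reductase (log2 change -0.25, adjusted p = 0.00935), and PMM2, phosphomannomutase (-0.27, adjusted p = 0.0341), whose call was lost without any 1 library but DNMT3A library 2. None of the 12 rose.

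Further glycogen genes gave 1 higher and 2 lower of 17 tested. PPP1R3E, another glycogen-targeting phosphatase subunit, was at 3.52 ± 0.495 FPKM with DNMT3A and 2.41 ± 0.251 FPKM in control (SD, n = 4 each; log2 change 0.40, adjusted p = 0.0144). PGM2, a relative of PGM1 (log2 change -0.22, adjusted p = 0.0351), and PHKB, a phosphorylase kinase subunit (-0.20, adjusted p = 0.0468), fell. The call of PGM2 was lost without DNMT3A library 2, 3 or 4 or control library 2, 3 or 4, and that of PHKB without any 1 library but DNMT3A library 4. Of 10 tested glucose and monocarboxylate carriers outside the 44 genes, SLC2A10 (log2 change 0.33) and SLC2A13 (0.31) rose and SLC2A6 (-0.33) and SLC2A8 (-0.35) fell, with adjusted p between 0.0183 and 0.0422. Each of these 4 calls was lost without at least 2 of the libraries, control library 3 among them every time.

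A further list held the enzymes and shuttles that feed carbon to gluconeogenesis across the mitochondrial membrane. Of its 10 tested genes 4 fell and none rose, where 10.6% of all genes tested fell and 9.93% rose. SLC25A1, the citrate carrier, was at 70.2 ± 6.45 FPKM with DNMT3A and 95.2 ± 12.2 FPKM in control (SD, n = 4 each; log2 change -0.43, adjusted p = 0.0137). MDH2, mitochondrial malate dehydrogenase, was at 50.1 ± 4.32 FPKM with DNMT3A and 62.0 ± 2.64 FPKM in control (SD, n = 4 each; log2 change -0.31, adjusted p = 0.0144). GPT, alanine aminotransferase (-0.43, adjusted p = 0.0363), and SLC25A10, the dicarboxylate carrier (-0.27, adjusted p = 0.038), also fell, and both calls were lost without DNMT3A library 1, 3 or 4 or control library 1 or 3, that of GPT also without control library 2 and that of SLC25A10 without control library 4. Of 18 genes listed for the TCA cycle 6 fell, where 10.6% of all genes tested fell, and none rose. The largest changes were those of IDH2 (log2 change -0.43, adjusted p = 0.00242), FH (-0.31, adjusted p = 0.00827), IDH1 (-0.30, adjusted p = 0.008) and SDHD (-0.30, adjusted p = 0.0248). IDH1, which is cytosolic, and IDH2 use NADP, unlike the NAD-linked enzyme of the cycle. Its subunits IDH3A (log2 difference -0.03, adjusted p = 0.835), IDH3B (0.23, adjusted p = 0.09) and IDH3G (-0.20, adjusted p = 0.117) did not pass the test. The call of SDHD was lost without DNMT3A library 1 or control library 2 or 3.

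Of 33 tested transcription factors and hormonal regulators of glucose metabolism, 5 rose and 3 fell. Together these were 24.2% of the 33, near the 20.6% of all genes tested. CEBPA, a hepatocyte factor known to act on gluconeogenic genes, fell to 23.1 ± 4.98 FPKM with DNMT3A, against 45.3 ± 4.76 FPKM in control (SD, n = 4 each; log2 change -0.96, adjusted p = 0.00199). HIF1A, the hypoxia factor known to raise HK2 and PFKFB3 when its protein is stable, fell at the RNA level to 45.2 ± 3.21 FPKM with DNMT3A, against 55.5 ± 3.53 FPKM in control (SD, n = 4 each; log2 change -0.29, adjusted p = 0.0157), and its call was lost without control library 3 (adjusted p = 0.0535). TRIB3, an inhibitor of AKT signalling, fell too (-0.36, adjusted p = 0.00386). HIF protein was not measured. CRTC2, the cAMP coactivator of gluconeogenic genes, rose to 6.37 ± 0.491 FPKM with DNMT3A, against 4.70 ± 0.347 FPKM in control (SD, n = 4 each; log2 change 0.37, adjusted p = 0.0062). FOXO3, a factor held in check by insulin (0.32, adjusted p = 0.0142), and MLX, the partner of ChREBP (0.25, adjusted p = 0.0369), rose as well, the call of MLX being lost without any 1 library but DNMT3A library 4 and control library 1.

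IGFBP1, a secreted liver protein that insulin represses as it does PCK1, was at 369.5, 181, 368 and 350.2 FPKM in DNMT3A libraries, against 186, 172, 156 and 164 FPKM in control libraries. The log2 change was 0.85 (0.39 to 1.30; adjusted p = 0.0185), and the call was lost without DNMT3A library 1 or 3 or control library 3. DNMT3A library 2 lay among the control libraries for IGFBP1, and it was also the lowest of its group for PCK1, G6PC and HK2. That library was the lowest of its group for 15 of the 37 tested genes and the highest for 11. Among all genes tested it was the lowest for 33.6%. A shared behaviour of the named genes was not tested. TXNIP, an arrestin that limits glucose uptake and follows glucose levels, was at 19.99, 15.9, 19.4 and 17.7 FPKM in DNMT3A libraries, against 14.8, 10.8, 9.03 and 14.3 FPKM in control libraries. Its groups did not overlap (log2 change 0.56, adjusted p = 0.0218), and its call was lost without DNMT3A library 1 or 3 or control library 2. Of the uncalled regulators with the highest levels, RBP4, the retinol carrier, had a log2 difference of 0.04 and MYC, a driver of glycolytic genes, one of -0.14.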

How the data were processed

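RNA was measured in 8 libraries, 4 per group, with groups and replicate numbers taken from the sample titles. Per the submitters' processing notes, alignment used HISAT2 2.0.5 and the build hg38; the program that counted fragments is not given in the sources used here. Values were deposited as FPKM, 1 column per library, per the file headers. Gene coordinates of all 58735 rows were identical to GENCODE 29, as were the lengths of the 44 genes. FPKM times length gave whole reads for 100% of values (tolerance 0.01 of a read), which summed to 17232809 to 17626137 reads in DNMT3A libraries and 15911019 to 17677093 reads in control libraries. No pair was a duplicate (chi-square per degree of freedom 4.58 to 24.3 within groups and 20.2 to 35.2 between groups). The highest value within a group, between DNMT3A libraries 2 and 4, lay in the range between groups. The limit of 3 reads behind a 0 covers counting error only.

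Genes with a mean of at least 1 FPKM were compared with limma 3.58.1 in R 4.3.3 on log2(FPKM + 1), moderated with an intensity trend and adjusted by Benjamini-Hochberg over the 11620 genes tested, at a threshold of 0.05. A fold change on this scale understates that of low genes. Intervals are limma's 95% intervals. For isozyme ratios the test was an exact permutation test, two-sided. The scripts were tested on simulated data.

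The 44 genes and the further lists were chosen with earlier results of these data known. Every one of the 44 could be named; of each further list, up to 4 genes past the threshold with the largest change, up to 2 others with the highest mean level, and the genes behind a count of 5 or fewer. PFKFB1, PFKFB2, IDH3A, IDH3B and IDH3G were named after their values were seen. Some results are not reported here. Promoter windows come from RefSeq (GRCh38.p14), the first listed where a gene has several, and can lie inside the longer gene models of GENCODE. Alternatives were a pseudocount of 0.1, no filter on level, a block for the replicate number, median-ratio scaling, array weights, a fit without the trend, voom on the recovered reads (chosen after seeing the data) and leaving out each library. A planned quasi-likelihood test on counts was not run, since the deposited unit is FPKM.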

Additional observations from a re-analysis of the deposited data

Results flagged for a closer look

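In groups of 4, a library was marked where its gap to the nearest of the others took up more of the group's whole range than Dixon's critical value for 4 values allows. Of 84 groups examined, 10 were marked, where chance marks about 1 in 20. Among them, control library 1 was the highest of its group for HK1 (0.130 FPKM, next 0.0554), GPI (42.7, next 40.0), ENO1 (469.7, next 389), PDK1 (5.20, next 4.55), SLC16A3 (48.4, next 37.5) and GBE1 (15.2, next 12.7). The HK1 value is 13 reads against 6 in the next library. PCK1 was low in DNMT3A library 2, at 1.43 FPKM where the next lowest of the group was 2.39 FPKM. ENO2 was high in DNMT3A library 2, at 14.5 FPKM with 12.9 FPKM as the next. In control library 4 ENO2 was low, at 13.6 FPKM with 15.7 FPKM as the next. TPI1 was low in DNMT3A library 4, at 159.9 FPKM with 182 FPKM as the next.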

How the results depend on the processing

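Over 15 alternatives no called gene of the 44 changed direction, and HK2, PCK1, PCK2, PFKFB3 and PFKP kept their calls in all of them, with adjusted p up to 0.000692, 0.00283, 0.0203, 0.0244 and 0.0222. PKLR lost its call in 14, GBE1 in 8, PGM1 and ALDOA in 7 each and PFKFB4 in 4. Of the 27 genes not called, 21 passed in no alternative. The count of called genes was 10 (6 higher, 4 lower). It was 5 with no filter (4 higher, 1 lower; GBE1 0.119, PFKFB4 0.0866, ALDOA 0.0751 and PGM1 0.074), where 30436 genes shared the adjustment, and 14 with array weights (7 higher, 7 lower), which added SLC2A1, PFKL, TPI1, ENO2 and GYS1. Leaving out 1 library gave 5 to 9 called (4 to 7 higher, 1 to 3 lower). Over all genes 2389 were called (1154 higher, 1235 lower), against 1596 with no filter (810 higher, 786 lower), 3756 with array weights (1825 higher, 1931 lower) and 1508 to 2443 with 1 library left out (769 to 1195 higher, 739 to 1248 lower); the fewest came without control library 3 and, at 1551, without control library 2. Voom on recovered reads called 2708 genes and 10 of the 44, of which 9 were also called in the main fit. It left out PKLR (adjusted p = 0.0699) and added SLC2A1 (adjusted p = 0.0453). With the replicate number as a block, 1881 genes and 8 of the 44 were called. For the isozymes, 8 pairs moved one way in all 4 same-numbered comparisons, and 3 to 6 pairs had no overlap with 1 library left out. In the unpaired test 3 pairs had no overlap. Separated groups stay separated when a library is left out or libraries are compared by number. These counts could therefore not fall below 3 and do not test the 3 pairs. The 4 same-numbered comparisons are too few for a paired test to pass. The numbers were not taken as pairs, since same-numbered libraries correlated at 0.16, -0.08, -0.02 and 0.10 and none correlated best with its own number. Of the 31 called genes in the further lists, 12 kept their calls throughout and 17 lost them without at least 1 library (adjusted p 0.0505 to 0.115). Depth limits HK1, PFKM, FBP1 and PPP1R3B; ALDOA, LDHB and GYS2 share exonic bases with other genes, an effect that was not tested.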
